A study of Mus musculus with 72 samples.

Results

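The subject is the Toll-like receptors and Cd14 in RAW264.7, a line of mouse macrophage-like cells, after lentiviral hairpins against SMRT (shSMRT) or NCOR (shNCOR) and with the control hairpin against GFP (shGFP). The members were taken by symbol: 10 genes (Tlr1, Tlr2, Tlr3, Tlr4, Tlr6, Tlr7, Tlr8, Tlr9, Tlr13 and Cd14) of the 25124 genes of the RNA table, and the 48 ATAC peaks annotated to them of 51983 peaks. The titles of these libraries name no treatment. All groups grew in the same serum-containing medium, each carried 1 hairpin, and the labels give the line's genotype as BALB/c. RNA-seq and ATAC-seq each had 3 libraries per hairpin, told apart by title. Ncor1 encodes NCOR. Both proteins are corepressors, which recruit HDAC3, a histone deacetylase, to transcription factors. The labels do not say whether a hairpin group was a clone or a pool, nor whether its libraries were separate cultures. The p-values therefore reflect the spread among the libraries at hand, and that spread may be technical. Loss of the targeted corepressor cannot be told apart from other differences between separately infected cells.

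Toll-like receptors recognise microbial molecules. Those at the cell surface bind bacterial lipoproteins or, with Cd14 as a helper, lipopolysaccharide, whereas those in endosomes bind nucleic acids. Most signal through the adaptor Myd88 to NF-kB and AP-1, and Tlr3 signals through Ticam1 to interferon regulatory factors. Macrophages carry many of these receptors, and the corepressors NCOR and SMRT are known to occupy promoters of inflammatory genes in resting macrophages.

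The RNA libraries held 39.15 to 49.09 M reads (M, mega), with 90.93 to 92.83% of them in listed exons, and the ATAC libraries 6.059 to 10.84 M. The share of ATAC reads in peaks was 47.65 to 49.85% in shSMRT, 54.72 to 55.68% in shNCOR and 50.57 to 54.00% in shGFP. Ncor1 averaged 19.8 ± 0.748 RPKM in shSMRT, 4.04 ± 0.372 in shNCOR and 19.1 ± 0.973 in shGFP (SD, n = 3 each). The transcript of SMRT was not analysed here. Of 9 macrophage markers, 7 were above 10 RPKM in every library, and their summed level was 9390 to 9910 RPKM in shSMRT, 7630 to 7890 in shNCOR and 6380 to 6500 in shGFP, most of it from Lyz2, which averaged 8104 RPKM in shSMRT, 6548 in shNCOR and 5195 in shGFP. Of 8 tested markers, 8 were called higher and 0 lower in shSMRT against shGFP, beside 24.4% and 31.4% of all tested genes. In shNCOR 4 were called higher and 2 lower, beside 17.6% and 20.0%. Lyz2, Adgre1 and Fcgr3 were among those called higher in both hairpins. Csf1r and Itgam were called higher in shSMRT and lower in shNCOR (each -0.27 in log2 fold change in shNCOR). The marker Mertk was at or near 0 throughout. The 6 lymphocyte markers summed to 0.87 to 1.62 RPKM in shSMRT, 1.38 to 1.54 in shNCOR and 0.944 to 1.32 in shGFP, with 2 of the 6 at 0 in all libraries. Neutrophil and mast cell markers (4 of 6 at 0) summed to at most 0.54 RPKM, dendritic cell markers (1 of 4 at 0) to at most 0.95, and fibroblast and epithelial markers (4 of 6 at 0) to at most 0.017.

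The receptors did not move as a block. Against shGFP, shSMRT cells had more RNA of Tlr1, Tlr2, Tlr6, Tlr13, Tlr4 and Tlr8 and less of Cd14, while shNCOR cells had more Tlr4, Tlr7 and Tlr8 and less Tlr1, Tlr2 and Cd14. Tlr1 and Tlr2 thus lay on opposite sides of the control, and Tlr4 was raised by both hairpins, more by shNCOR. In counts, 6 of 10 members rose and 1 fell in shSMRT against shGFP, where 24.4% of the 10789 tested genes rose and 31.4% fell. In shNCOR against shGFP 3 rose and 3 fell, beside 17.6% and 20.0% of all genes. Between shSMRT and shNCOR 7 were higher and 1 was lower in shSMRT, beside 22.8% and 29.0%. The higher counts include Tlr8, which had no shGFP library at the filter of 1 RPKM, so that the filter helped to set its direction. Over the other 9 members the counts were 5 higher and 1 lower, 2 and 3, and 6 and 1. The median log2 fold change of the members was 0.29, -0.06 and 0.25 in these comparisons, against -0.02, 0.00 and -0.02 over all tested genes. A gene was called at a Benjamini-Hochberg adjusted p under 0.05 over all tested genes in a limma fit of log2(RPKM + 1), and the comparisons share libraries. A group's bulk RNA does not tell fewer expressing cells from less RNA per cell.

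**Figure D1:**
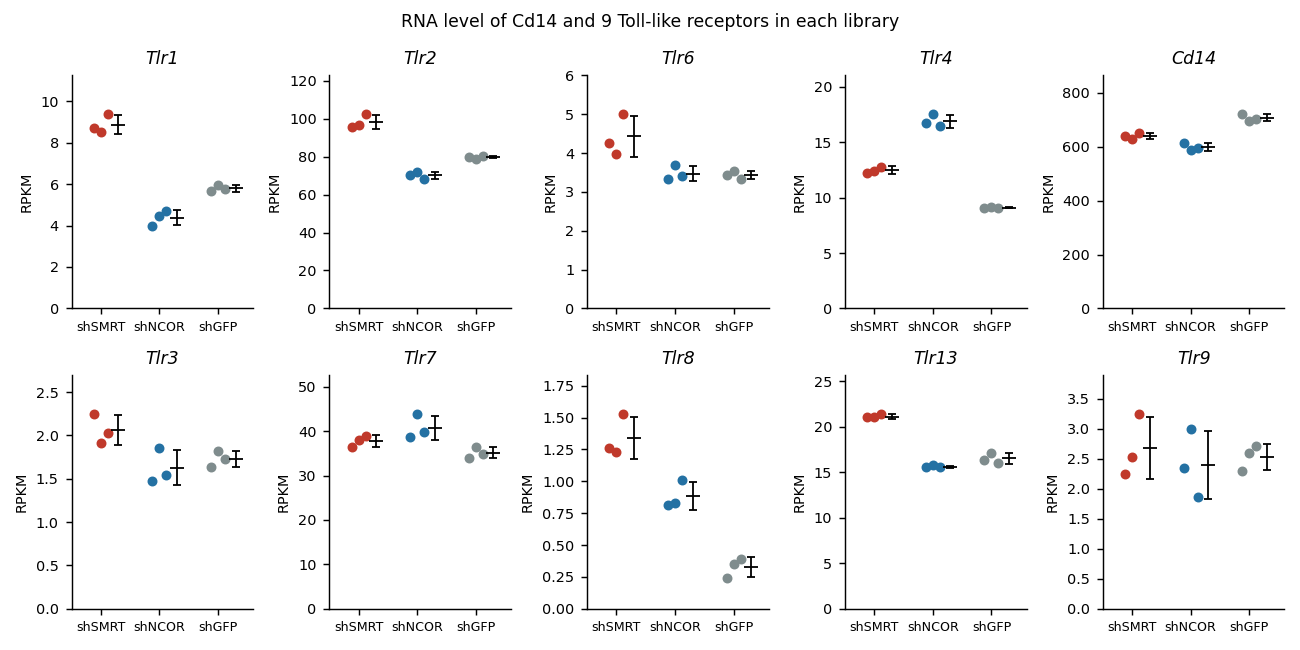
Level of each member in RPKM (vertical axes, each starting at 0) in the shSMRT, shNCOR and shGFP libraries (horizontal axis). Points are single libraries and the black mark is the mean with its SD (n = 3). For Tlr1 and Tlr2 all shSMRT points lie above and all shNCOR points below the shGFP points, and for Tlr4 both hairpins lie above shGFP.

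Levels per exon length differed widely among the members. Cd14, the coreceptor that hands lipopolysaccharide to the Tlr4 complex, had the highest level in every group, and Tlr8 the lowest. In shGFP the order below Cd14 was Tlr2 (79.6 RPKM), Tlr7 (35.1), Tlr13 (16.5), Tlr4 (9.10), Tlr1 (5.79), Tlr6 (3.43), Tlr9 (2.53), Tlr3 (1.73) and Tlr8 (0.329). The order was the same in shSMRT, whereas in shNCOR Tlr4 stood above Tlr13. Neighbours in the order did not overlap between libraries in any group, except that Tlr9 and Tlr3 overlapped in shSMRT and in shNCOR.

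Among the lipoprotein receptors, Tlr2 is the common partner that pairs with Tlr1 or Tlr6. Tlr2 (chr3:83836272-83841608, mm10, minus strand) had 95.8, 96.5 and 102.7 RPKM in shSMRT, 70.3, 71.9 and 68.3 in shNCOR and 79.9, 78.9 and 80.1 in shGFP. No groups overlapped: shSMRT was highest and shNCOR lowest. In log2 fold change this was 0.30 ± 0.032 (SE) in shSMRT against shGFP (adjusted p = 1.42e-05), -0.18 ± 0.032 in shNCOR against shGFP (adjusted p = 0.00106) and 0.48 ± 0.032 in shSMRT against shNCOR (adjusted p = 4.11e-07).

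Tlr1 (chr5:64924680-64932699, minus strand), which with Tlr2 recognises triacylated lipopeptides, showed the same order of groups with a wider spread. It had 8.69, 8.53 and 9.40 RPKM in shSMRT, 3.97, 4.46 and 4.68 in shNCOR and 5.65, 5.95 and 5.78 in shGFP. The shSMRT mean was 1.53 times and the shNCOR mean 0.754 times that of shGFP. The log2 fold changes were 0.54 ± 0.060 (SE, adjusted p = 2.13e-05) and -0.34 ± 0.060 (adjusted p = 0.00106), and that of shSMRT against shNCOR, 0.88 ± 0.060 (adjusted p = 5.35e-07), was the widest between any pair of groups among the 10 members on the log2(RPKM + 1) scale. As a ratio of means Tlr8 spanned more, 4.08 between shSMRT and shGFP, against 2.03 between shSMRT and shNCOR for Tlr1.

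Tlr6 (chr5:64953106-64960048, minus strand), the partner of Tlr2 for diacylated lipopeptides, rose in shSMRT. It had 4.26, 3.99 and 5.02 RPKM in shSMRT, 3.33, 3.69 and 3.40 in shNCOR and 3.44, 3.53 and 3.33 in shGFP. All shSMRT libraries were above the other 6, and shNCOR overlapped shGFP. Its change on the log2 scale was 0.29 ± 0.074 (SE) in shSMRT against shGFP (adjusted p = 0.00646) and 0.012 ± 0.074 in shNCOR against shGFP (adjusted p = 0.913). Tlr1 and Tlr6 lie beside each other and are closely related in sequence, so the division of reads between them is uncertain.

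Tlr4 (chr4:66827551-66846581, plus strand), the signalling receptor for lipopolysaccharide, rose with both hairpins. It had 12.2, 12.4 and 12.8 RPKM in shSMRT, 16.7, 17.6 and 16.5 in shNCOR and 9.11, 9.12 and 9.06 in shGFP, and no groups overlapped. The shSMRT mean was 1.37 times and the shNCOR mean 1.86 times that of shGFP. The log2 fold changes were 0.42 ± 0.039 (SE, adjusted p = 5.67e-06) and 0.83 ± 0.039 (adjusted p = 3.82e-08), and shSMRT was 0.41 ± 0.039 below shNCOR in log2 units (a fold change of -0.41, adjusted p = 6.29e-06). Unnamed predicted genes and small RNA genes were left out of a search for tested genes with similar centred log2 levels over the 9 libraries. Those most like Tlr4 were Rnf128 (root mean square difference 0.0391), Neurl3 (0.051) and Slc7a8 (0.0579). For Tlr1 they were Impact (0.0473), Hmga2 (0.0516) and the receptor gene Csf1r (0.0593), which averaged 552.4 RPKM in shSMRT, 321.0 in shNCOR and 388.1 in shGFP.

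Cd14 (chr18:36725064-36726815, minus strand) moved against its partner Tlr4. It had 640.3, 628.5 and 651.0 RPKM in shSMRT, 614.9, 586.6 and 594.4 in shNCOR and 722.8, 695.8 and 703.5 in shGFP. Both hairpins lay below all shGFP libraries, and the change was small. The log2 fold change was -0.14 ± 0.029 (SE) in shSMRT (adjusted p = 0.00146) and -0.24 ± 0.029 in shNCOR (adjusted p = 6.83e-05). The difference between shSMRT and shNCOR (0.096 ± 0.029, adjusted p = 0.0165) was not called without shSMRT replicate 3 (adjusted p = 0.068), shNCOR replicate 2 (0.06) or shNCOR replicate 3 (0.0547).

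In endosomes, Tlr7 and Tlr8 are neighbours on the X chromosome and related single-stranded RNA receptors. Tlr7 (chrX:167304926-167330571, minus strand) had 36.4, 38.0 and 39.0 RPKM in shSMRT, 38.7, 43.9 and 39.7 in shNCOR and 34.0, 36.4 and 34.8 in shGFP. The shNCOR libraries were above those of shGFP, whereas shSMRT overlapped shGFP. The log2 fold change was 0.21 ± 0.048 (SE) in shNCOR (adjusted p = 0.00532) and 0.11 ± 0.048 in shSMRT (adjusted p = 0.0837). The shSMRT change lay near the threshold and was called in 6 alternatives. These were without shNCOR replicate 2 (adjusted p = 0.034), quantile normalization (log2 fold change 0.17, adjusted p = 0.0163), the replicate block (0.0323), a fit of only the 6 libraries compared (0.0369), array weights (0.0483) and voom on recovered reads (0.0411).

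Tlr8 (chrX:167241123-167264329, minus strand) was the lowest member. It had 1.26, 1.23 and 1.53 RPKM in shSMRT, 0.813, 0.827 and 1.01 in shNCOR and 0.241, 0.352 and 0.393 in shGFP, from 44 to 260 reads per library. It passed the filter through the 3 shSMRT libraries and 1 shNCOR library, so its difference from shGFP is partly built in by the filter. With that limit, its log2 fold change was 0.82 ± 0.093 (SE) in shSMRT (adjusted p = 2.36e-05) and 0.50 ± 0.093 in shNCOR (adjusted p = 0.00139). These sizes depend on the pseudocount: across the alternatives they ranged from 0.25 to 2.05 in shSMRT and from 0.14 to 1.44 in shNCOR. The higher level in shSMRT than in shNCOR (0.31 ± 0.093, adjusted p = 0.0151) lost its call without shSMRT replicate 3 (adjusted p = 0.0622) or shNCOR replicate 2 (0.0505) and under quantile normalization (log2 fold change 0.16, adjusted p = 0.172).

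Tlr13 (chrX:106143275-106160493, plus strand), the mouse receptor for bacterial ribosomal RNA, rose in shSMRT and not detectably in shNCOR. It had 21.0, 21.0 and 21.4 RPKM in shSMRT, 15.6, 15.8 and 15.6 in shNCOR and 16.3, 17.1 and 16.0 in shGFP. All shSMRT libraries were above the other 6. Tlr13 changed on the log2 scale by 0.34 ± 0.034 (SE) in shSMRT against shGFP (adjusted p = 9.7e-06), -0.07 ± 0.034 in shNCOR against shGFP (adjusted p = 0.138) and 0.41 ± 0.034 in shSMRT against shNCOR (adjusted p = 2.58e-06).

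Tlr3 (chr8:45395665-45410380, minus strand), which binds double-stranded RNA, and Tlr9 (chr9:106222598-106226876, plus strand), which binds unmethylated CpG DNA, were low and passed no test against shGFP. Tlr3 had 2.25, 1.91 and 2.03 RPKM in shSMRT, 1.48, 1.86 and 1.54 in shNCOR and 1.64, 1.82 and 1.73 in shGFP. On the log2 scale its change was 0.17 ± 0.079 (SE) in shSMRT (adjusted p = 0.0977) and -0.057 ± 0.079 in shNCOR (adjusted p = 0.607). The shSMRT level exceeded that of shNCOR (0.22 ± 0.079, adjusted p = 0.0352), a call that ended without shSMRT replicate 1 (adjusted p = 0.121) or replicate 3 (0.0674), without shNCOR replicate 1 (0.111) or replicate 3 (0.0985), and under quantile normalization (0.299). Tlr9 had 2.25, 2.53 and 3.25 RPKM in shSMRT, 2.35, 2.99 and 1.86 in shNCOR and 2.29, 2.59 and 2.72 in shGFP, and all groups overlapped. Its log2 fold changes were 0.051 ± 0.13 (SE) in shSMRT (adjusted p = 0.755) and -0.065 ± 0.13 in shNCOR (adjusted p = 0.721), a precision that leaves small changes undetectable.

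**Figure D2:**
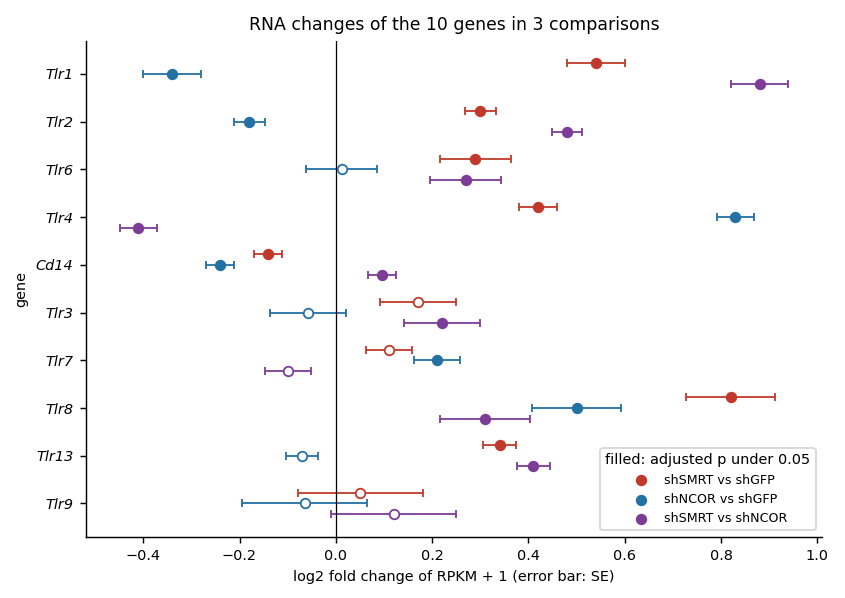
Log2 fold change of RPKM + 1 (horizontal axis, error bar SE) for each member (vertical axis) in shSMRT against shGFP, shNCOR against shGFP and shSMRT against shNCOR. Filled points passed an adjusted p of 0.05. Tlr1 and Tlr2 have filled points on both sides of 0 against shGFP, and Tlr4 is positive in both hairpins and negative between them.

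The 13 calls against shGFP (7 in shSMRT, 6 in shNCOR) held without each single library. Across genes, fold changes rose weakly with exon length in shSMRT against shGFP (Spearman rho 0.16 over 10789 genes) and hardly in shNCOR against shGFP (0.0355). Of the 10 members, 8 were longer than the median tested gene, and the part of length in their changes was not tested. The macrophage markers given above also differed between the groups, upward in shSMRT and in both directions in shNCOR, and their part was not tested.

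At the chromatin level, 4 of the 8 Tlr4 peaks were called higher in shNCOR, and the start-site peaks of Tlr3, Tlr4, Tlr2 and Cd14 were called lower in shSMRT. Each of the 4 Tlr4 calls ended when some single library was left out. The start-site calls of Tlr4, Tlr2 and Cd14 ended without some single library and under quantile normalization, whereas that of Tlr3 held in both. Peak values are reads scaled to 10 M per library, tested as log2(value + 5). Of the 48 peaks, 3 rose and 7 fell in shSMRT against shGFP, where 6.81% of the 51469 tested peaks rose and 10.9% fell. In shNCOR against shGFP 8 rose and 4 fell, beside 4.58% and 4.00% of all peaks. Between shSMRT and shNCOR 1 was higher and 9 were lower in shSMRT, beside 6.93% and 17.5%. Median log2 fold changes were -0.02, 0.17 and -0.14, against -0.09, 0.05 and -0.12 over all peaks. The direction depends on the scaling. Under quantile normalization the counts became 6 higher and 4 lower in shSMRT against shGFP, 4 and 3 in shNCOR against shGFP, and 2 and 4 between them, and over all peaks the higher share of calls moved from 38.5% to 56.7%, from 53.4% to 44.9% and from 28.4% to 59.7%. The share of reads in peaks was lowest in shSMRT, and its part in these changes was not tested. All 12 shNCOR calls and 8 of the 10 shSMRT calls against shGFP ended when at least 1 library was left out. Without shGFP replicate 1, 4 peaks were called in shNCOR and 3 in shSMRT. Other omissions that moved the shNCOR count were shGFP replicate 2 (6 calls), shGFP replicate 3 (4), shNCOR replicate 1 (7) and shNCOR replicate 3 (6), and without shSMRT replicate 1 the shSMRT count was 5.

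**Figure D3:**
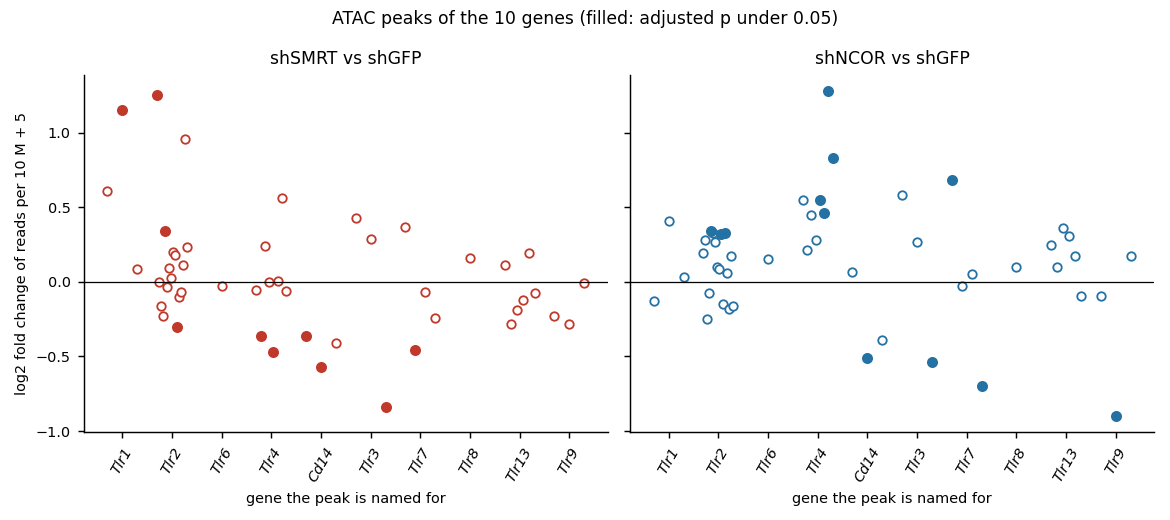
Log2 fold change of reads per 10 M + 5 (vertical axis) for each of the 48 peaks, by the gene it is named for (horizontal axis) and, within a gene, in order of distance to the start site. The left panel shows shSMRT against shGFP and the right panel shNCOR against shGFP. Filled points passed an adjusted p of 0.05, and 4 of the 8 Tlr4 peaks are filled above 0 in shNCOR.

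Promoter sequence is shown for 3 members with a peak over the start site. Tlr3 has a start-site peak whose fall in shSMRT held without each library, Tlr2 has one that did not follow its RNA, and Tlr9 had the smallest differences between group means of log2 RNA level among the members. Each is the 250 bases before the start site from RefSeq (GRCm38.p6), read 5′ to 3′ on the gene's strand, at chr8:45410381-45410630 (minus) for Tlr3, chr3:83841609-83841858 (minus) for Tlr2 and chr9:106222348-106222597 (plus) for Tlr9. Capitals mark matches on either strand to an NF-kB core (GGGNNNNNCC), an AP-1 motif (TGANTCA), a PU.1 core (GAGGAA) or a nuclear receptor half-site (AGGTCA).
Tlr3: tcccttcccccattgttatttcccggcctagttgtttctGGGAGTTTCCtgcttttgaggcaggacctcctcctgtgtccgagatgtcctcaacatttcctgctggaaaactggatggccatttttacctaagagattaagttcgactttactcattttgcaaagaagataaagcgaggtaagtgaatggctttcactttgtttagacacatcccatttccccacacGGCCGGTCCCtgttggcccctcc
Tlr2: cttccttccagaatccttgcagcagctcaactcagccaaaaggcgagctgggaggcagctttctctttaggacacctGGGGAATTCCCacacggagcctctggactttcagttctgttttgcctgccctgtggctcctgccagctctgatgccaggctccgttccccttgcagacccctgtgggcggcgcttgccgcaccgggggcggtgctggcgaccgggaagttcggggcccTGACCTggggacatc
Tlr9: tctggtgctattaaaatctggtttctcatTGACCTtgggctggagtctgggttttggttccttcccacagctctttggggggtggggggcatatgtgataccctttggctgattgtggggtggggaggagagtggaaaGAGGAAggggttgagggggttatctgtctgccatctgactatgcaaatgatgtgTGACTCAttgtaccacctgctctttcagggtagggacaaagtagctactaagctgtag

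The Tlr3 window holds 2 separate NF-kB core matches and none of the other motifs, the Tlr2 window an overlapping pair of NF-kB core matches and a half-site near its end, and the Tlr9 window a half-site, a PU.1 core and an AP-1 match. These short motifs are common. The NF-kB core was found in 45.8% of 32851 promoter windows, the PU.1 core in 23.3%, the half-site in 14.0%, AP-1 in 6.75% and an interferon-stimulated response element core (GAAANNGAAA) in 2.98%. Windows of the same length were found for Tlr1, Tlr2, Tlr3, Tlr6, Tlr8, Tlr9 and Tlr13, 9 windows in all, and Tlr4, Tlr7 and Cd14 are named only. The NF-kB core was in 3 of the 9, the PU.1 core in 4, the half-site in 2, AP-1 in 1 and the interferon-stimulated core in 1, a Tlr6 window. A match describes letters only.

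The Tlr3 start-site peak (chr8:45410182-45410646, 34 bases upstream, covering all 250 bases shown) fell in both hairpins. It had 57.3, 55.6 and 49.5 reads per 10 M in shSMRT, 60.7, 80.9 and 63.4 in shNCOR and 115.2, 94.7 and 93.1 in shGFP, and every hairpin library was below every shGFP library. The peak's log2 fold change was -0.84 ± 0.18 (SE) in shSMRT (adjusted p = 0.000553) and -0.54 ± 0.18 in shNCOR (adjusted p = 0.0464). The shSMRT call held without each library. The shNCOR call ended without shGFP replicate 1 (adjusted p = 0.22), replicate 2 (0.0957) or replicate 3 (0.0848), without shNCOR replicate 1 (0.146) or replicate 3 (0.116), and under quantile normalization (0.0501). Tlr3 RNA, given above, passed no test against shGFP.

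Tlr4 had 8 peaks, of which 4 rose in shNCOR against shGFP and 2 fell in shSMRT against shGFP, and 5 were lower in shSMRT than in shNCOR. The start-site peak (chr4:66827369-66827964, in the 5′ untranslated exon) had 200.9, 218.9 and 253.3 reads per 10 M in shSMRT, 335.2, 331.7 and 338.7 in shNCOR and 315.3, 270.9 and 282.2 in shGFP. All shSMRT libraries were below the others, although Tlr4 RNA was higher in shSMRT than in shGFP. Its log2 fold change was -0.36 ± 0.097 (SE) in shSMRT (adjusted p = 0.0062), 0.21 ± 0.097 in shNCOR (adjusted p = 0.181) and -0.58 in shSMRT against shNCOR (adjusted p = 2.2e-05). The shSMRT call against shGFP ended without shGFP replicate 1 (adjusted p = 0.0641) or shSMRT replicate 1 (0.0523) and under quantile normalization (0.0905), and the difference between the hairpins held in each of these.

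The intergenic peak 24.6 kb from the Tlr4 start (chr4:66851877-66852396) separated all groups, with 62.0, 66.9 and 60.8 reads per 10 M in shSMRT, 132.0, 146.9 and 123.1 in shNCOR and 95.0, 76.9 and 98.7 in shGFP. The log2 fold change was -1.02 in shSMRT against shNCOR (adjusted p = 2.95e-06), which held in every alternative. Against shGFP it was -0.47 ± 0.15 (SE) in shSMRT (adjusted p = 0.0255) and 0.55 ± 0.15 in shNCOR (adjusted p = 0.0159). The shSMRT call ended without shGFP replicate 1 (adjusted p = 0.11) or replicate 3 (0.127) and without shSMRT replicate 1 (0.0683) or replicate 3 (0.0624), and the shNCOR call without shGFP replicate 2 (0.129) or shNCOR replicate 2 (0.0799).

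Farther out, the peak at 67.2 kb had 30.1, 36.3 and 29.7 reads per 10 M in shSMRT, 56.8, 57.8 and 77.4 in shNCOR and 42.5, 29.1 and 30.4 in shGFP. The shNCOR libraries were above all others, with a log2 fold change of 0.83 ± 0.24 (SE) against shGFP (adjusted p = 0.022) and -0.89 for shSMRT against shNCOR (adjusted p = 0.00514). The call against shGFP ended without shGFP replicate 2 (adjusted p = 0.106) or replicate 3 (0.0892) or shNCOR replicate 3 (0.118). The weak peak at 64.2 kb had 25.4, 15.9 and 32.5 reads per 10 M in shSMRT, 46.2, 44.6 and 36.8 in shNCOR and 7.83, 17.8 and 20.3 in shGFP. Its shNCOR change of 1.28 ± 0.32 (SE, adjusted p = 0.00565) ended without shGFP replicate 1 (0.0707). The peak at 29.6 kb averaged 92.6 ± 6.90 reads per 10 M in shSMRT, 129.8 ± 18.6 in shNCOR and 92.1 ± 2.38 in shGFP (SD, n = 3 each). Its shNCOR change of 0.46 ± 0.14 (SE, adjusted p = 0.0334) ended without any 1 of shGFP replicates 1 to 3 (adjusted p = 0.101, 0.0887 and 0.0811), shNCOR replicate 1 (0.106) or shNCOR replicate 3 (0.147). The call also ended under quantile normalization (0.082).

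**Figure D4:**
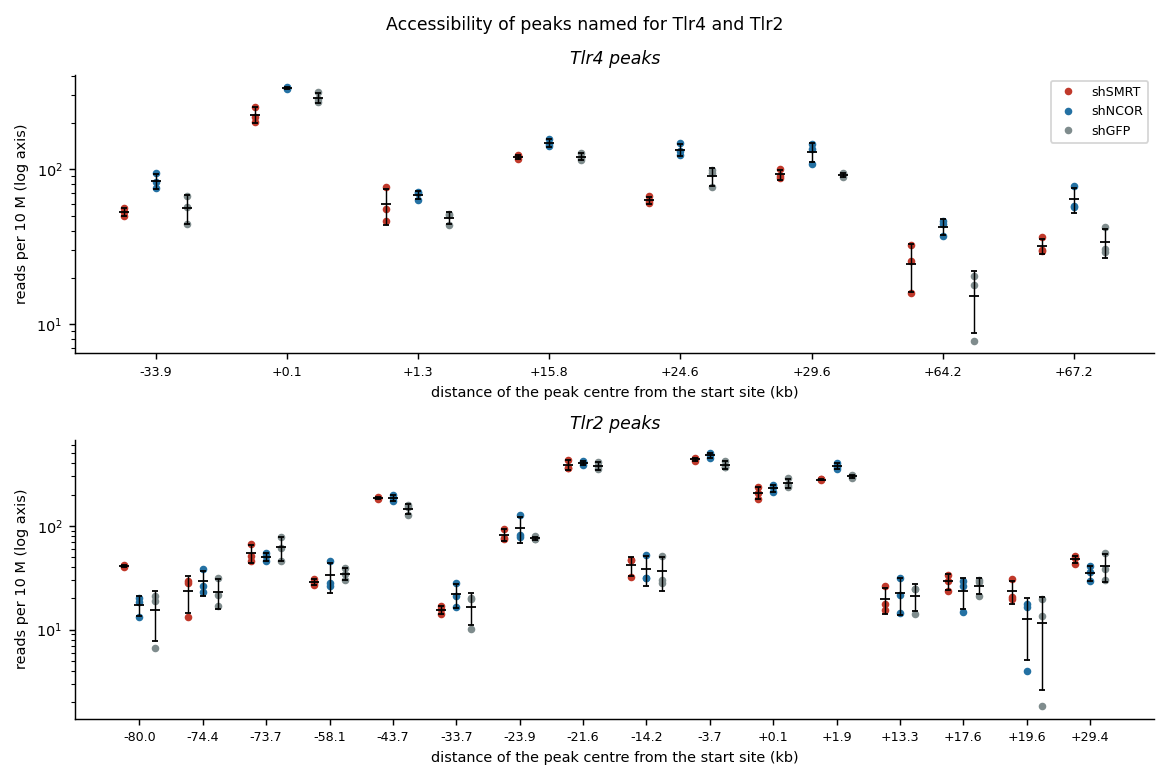
Reads per 10 M (vertical log axis) of each peak named for Tlr4 (top) and Tlr2 (bottom), by distance of the peak centre from the start site in kb (horizontal axis, evenly spaced in order). Points are libraries of shSMRT, shNCOR and shGFP and the black mark is the mean with its SD (n = 3). At 24.6 kb from Tlr4 all shNCOR points lie above and all shSMRT points below shGFP.

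Tlr2 had 16 peaks, the most of any member, of which 2 rose and 1 fell in shSMRT and 3 rose in shNCOR against shGFP. The start-site peak (chr3:83841324-83841793, covering 185 of the 250 bases shown) had 239.4, 207.6 and 181.1 reads per 10 M in shSMRT, 209.9, 245.9 and 237.2 in shNCOR and 288.5, 246.6 and 238.8 in shGFP. Both hairpin groups overlapped shGFP, and the shSMRT fall of -0.30 ± 0.11 (SE, adjusted p = 0.0439) was not stable. It ended without shGFP replicates 1 (adjusted p = 0.262), 2 (0.063) or 3 (0.0537), without shSMRT replicates 2 (0.0883) or 3 (0.247) and under quantile normalization (0.428). Tlr2 RNA was higher in shSMRT than in shGFP.

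A small peak at -80.0 kb from Tlr2, inside an intron of another gene, had 40.4, 42.0 and 41.0 reads per 10 M in shSMRT, 18.5, 13.2 and 20.3 in shNCOR and 6.71, 18.8 and 21.2 in shGFP. All shSMRT libraries were above the others, with a log2 fold change of 1.25 ± 0.33 (SE) against shGFP (adjusted p = 0.00567) that ended without shGFP replicate 1 (0.0892). The intron peak at 1.91 kb had 281.7, 281.3 and 274.5 reads per 10 M in shSMRT, 370.9, 407.7 and 355.2 in shNCOR and 304.1, 288.7 and 306.2 in shGFP. It rose in shNCOR by a log2 fold change of 0.33 ± 0.090 (SE, adjusted p = 0.0137), a call that ended without shGFP replicate 2 (0.0729) or shNCOR replicate 2 (0.0906) and under quantile normalization (0.0694). The upstream peak at -3.66 kb averaged 439.0 ± 12.7 reads per 10 M in shSMRT, 482.8 ± 27.0 in shNCOR and 387.1 ± 32.5 in shGFP (SD, n = 3 each). It was called higher in shNCOR (0.32 ± 0.084, adjusted p = 0.0104), which ended without shGFP replicate 1 (0.056) or replicate 3 (0.0843) or shNCOR replicate 1 (0.0743). Under quantile normalization it was called in shSMRT instead (0.36, adjusted p = 0.000117), and not in shNCOR (adjusted p = 0.063). The peak at -43.7 kb averaged 185.1 ± 3.67 reads per 10 M in shSMRT, 186.1 ± 10.8 in shNCOR and 146.1 ± 17.2 in shGFP. Its calls in shSMRT (0.34 ± 0.11, adjusted p = 0.0327) and shNCOR (0.34 ± 0.11, adjusted p = 0.0487) lay close to the threshold. The shNCOR call ended without any 1 of the 8 libraries other than shSMRT replicate 3 (adjusted p = 0.051 to 0.29), and the shSMRT call without any 1 of the 3 shGFP libraries or 3 shSMRT libraries other than shGFP replicate 3 (0.0536 to 0.194). Quantile normalization also ended the shNCOR call (0.139).

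Of the 3 peaks of Cd14, 2 fell in shSMRT, where its RNA also fell. The start-site peak (chr18:36726341-36726909) had 207.5, 236.0 and 199.5 reads per 10 M in shSMRT, 303.6, 295.4 and 269.0 in shNCOR and 254.9, 297.2 and 277.6 in shGFP. All shSMRT libraries were below the others, while shNCOR overlapped shGFP. The log2 fold change was -0.36 ± 0.099 (SE) in shSMRT (adjusted p = 0.00768) and 0.065 ± 0.099 in shNCOR (adjusted p = 0.761), although Cd14 RNA fell in both. The shSMRT call ended without shGFP replicate 2 (adjusted p = 0.0557) and under quantile normalization (0.126). The peak at 6.65 kb averaged 96.7 ± 18.7 reads per 10 M in shSMRT, 101.9 ± 25.4 in shNCOR and 145.8 ± 25.7 in shGFP (SD, n = 3 each). It was called lower in shSMRT (-0.57 ± 0.16, adjusted p = 0.00724) and in shNCOR (-0.51 ± 0.16, adjusted p = 0.029). Without shGFP replicate 1 both calls ended (adjusted p = 0.11 and 0.224). The shSMRT call also ended without shSMRT replicate 1 (0.0722), and the shNCOR call without shGFP replicate 3 (0.0653), shNCOR replicate 2 (0.09) or shNCOR replicate 3 (0.164).

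Tlr7 had no peak within 1 kb of its start. Its intron peak at 1.41 kb (chrX:167328470-167329861) had 223.5, 275.7 and 213.6 reads per 10 M in shSMRT, 311.5, 336.7 and 313.4 in shNCOR and 350.0, 316.9 and 313.5 in shGFP. All shSMRT libraries were below the others, with a log2 fold change of -0.46 ± 0.097 (SE) against shGFP (adjusted p = 0.000576) that held without each library, and shNCOR did not differ detectably from shGFP (-0.027 ± 0.097, adjusted p = 0.909). Farther into the gene, the peak at 14.6 kb had 62.9, 85.1 and 66.5 reads per 10 M in shSMRT, 47.5, 49.5 and 53.3 in shNCOR and 100.6, 77.8 and 77.5 in shGFP. It fell in shNCOR (-0.70 ± 0.18, adjusted p = 0.00931), a call that ended without shGFP replicate 1 (0.0949). A peak at -23.3 kb, inside an intron of another gene, rose in shNCOR (0.68 ± 0.16, adjusted p = 0.00364), with 102.3, 112.3 and 80.7 reads per 10 M in shSMRT, 122.7, 100.7 and 145.9 in shNCOR and 87.2, 75.9 and 61.8 in shGFP. That call ended without shGFP replicate 3 (adjusted p = 0.0503). In shSMRT the peak changed by 0.37 ± 0.16 (adjusted p = 0.0996). It was called there under quantile normalization (0.0492), array weights (0.0328) and without shSMRT replicate 3 (0.0435). The 2 hairpins did not differ detectably at this peak (adjusted p = 0.162).

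Of the remaining members, Tlr9 had a start-site peak (chr9:106221978-106222849, covering all 250 bases shown) that averaged 146.4 ± 12.9 reads per 10 M in shSMRT, 161.3 ± 16.2 in shNCOR and 172.1 ± 14.8 in shGFP (SD, n = 3 each), with no call. Its intron peak at 576 bases had 47.0, 47.6 and 35.4 reads per 10 M in shSMRT, 18.5, 46.2 and 20.3 in shNCOR and 63.7, 41.2 and 57.2 in shGFP. The shNCOR fall of -0.90 ± 0.27 (SE, adjusted p = 0.0233) came from groups that overlapped, and it ended without shGFP replicate 1 (0.134), shGFP replicate 3 (0.0966), shNCOR replicate 1 (0.127) or shNCOR replicate 3 (0.0928). Tlr1 had 3 peaks and none within 1 kb. The one at 13.6 kb had 31.9, 30.6 and 21.2 reads per 10 M in shSMRT, 11.9, 26.4 and 8.88 in shNCOR and 6.71, 9.37 and 13.8 in shGFP. It rose in shSMRT (1.15 ± 0.37, adjusted p = 0.025), a call that ended without shGFP replicate 1 (0.121), shGFP replicate 2 (0.0619), shSMRT replicate 1 (0.106) or shSMRT replicate 2 (0.0841). The start-site peak of Tlr13 was weak, at 21.5 ± 2.50 reads per 10 M in shSMRT, 30.6 ± 2.07 in shNCOR and 24.2 ± 6.27 in shGFP, and was not called. The single peaks of Tlr6 (at -1.12 kb) and Tlr8 (at -12.8 kb) were not called either. No peak annotated to Tlr6, Tlr8 or Tlr13, whose RNA rose in shSMRT, was thus called against shGFP. The annotation of a peak to a gene does not show which gene it regulates.

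Beyond the members, 59 other genes were listed, called pathway genes here, and 52 passed the filter. They include 11 pattern receptors outside the Toll-like family, of which 9 were tested. Those 9 gave 8 of the falls in shNCOR against shGFP counted next, and 8 of the genes higher in shSMRT than in shNCOR. In shSMRT against shGFP 16 rose and 13 fell, in shNCOR against shGFP 8 rose and 20 fell, and between shSMRT and shNCOR 25 were higher and 8 lower in shSMRT. As shares of the tested pathway genes these were 30.8% and 25.0%, beside 24.4% and 31.4% of all tested genes, then 15.4% and 38.5%, beside 17.6% and 20.0%, and 48.1% and 15.4%, beside 22.8% and 29.0%. Against shGFP, the 4 largest differences of log2(RPKM + 1) included Ddx58 and Dhx58 in shNCOR, nucleic acid sensors outside the Toll-like family. The others were those of the inhibitor Dusp1 in shSMRT and of the trafficking gene Slc15a3 in shNCOR. Nlrc4 and Zbp1 had no shNCOR library at the filter of 1 RPKM, so that the filter helped to set their lower levels there. Without them 18 of 50 pathway genes fell in shNCOR against shGFP, and 23 of 50 were higher in shSMRT than in shNCOR.

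Of 13 tested accessory and trafficking genes, 5 rose and 5 fell in shSMRT and 3 rose and 6 fell in shNCOR (median log2 fold change -0.04 and -0.09). These are 38.5% and 38.5% in shSMRT and 23.1% and 46.2% in shNCOR, to be read beside the shares of all genes just given, and the median over all tested genes was -0.02 in shSMRT and 0.00 in shNCOR. Ly86, the partner of the receptor-like protein Cd180, fell in both. It had 95.3, 86.0 and 88.7 RPKM in shSMRT, 63.0, 63.8 and 59.1 in shNCOR and 120.7, 118.3 and 118.6 in shGFP, a log2 fold change of -0.40 ± 0.040 (SE, adjusted p = 9.33e-06) in shSMRT and -0.93 ± 0.040 (adjusted p = 1.89e-08) in shNCOR. Slc15a3, an endolysosomal peptide and histidine transporter, fell in shNCOR and not detectably in shSMRT. It had 11.8, 12.8 and 12.0 RPKM in shSMRT, 4.83, 4.77 and 5.08 in shNCOR and 12.9, 13.0 and 12.9 in shGFP, a change of -1.24 ± 0.043 in shNCOR (adjusted p = 3.16e-09) and -0.079 ± 0.043 in shSMRT (adjusted p = 0.143). Pld3, a lysosomal nuclease that degrades ligands of Tlr9, averaged 59.9 ± 1.31 RPKM in shSMRT, 35.9 ± 0.935 in shNCOR and 30.4 ± 0.274 in shGFP (SD, n = 3 each). It rose by a log2 fold change of 0.96 ± 0.030 (SE) in shSMRT (adjusted p = 1.36e-09) and 0.24 ± 0.030 in shNCOR (adjusted p = 9.46e-05). Rftn1 fell in shSMRT (-0.39, adjusted p = 2.48e-06) and in shNCOR (-0.43, adjusted p = 1.85e-06). Ly96, the lipopolysaccharide-binding subunit of the Tlr4 complex, was called higher in shSMRT (0.24 ± 0.085, adjusted p = 0.0337) and shNCOR (0.31 ± 0.085, adjusted p = 0.0145). Its calls in both hairpins ended without shGFP replicate 2 (adjusted p = 0.112 and 0.0546) or shGFP replicate 3 (0.125 and 0.0607). That in shSMRT also ended without shSMRT replicate 1 (0.131) or replicate 3 (0.0669) and under quantile normalization (0.0703).

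Of 5 tested adaptors, 2 rose and 1 fell in shSMRT and 1 rose and 3 fell in shNCOR (median log2 fold change 0.07 and -0.15). These are 40.0% and 20.0% in shSMRT, beside 24.4% and 31.4% of all tested genes. In shNCOR they are 20.0% and 60.0%, beside 17.6% and 20.0%, and with so few genes such shares are coarse. Ticam2 was called higher in shSMRT (0.14, adjusted p = 0.0473) and lower in shNCOR (-0.15, adjusted p = 0.0479). These 2 calls ended in 10 and 14 alternatives. Myd88, the main adaptor, had 42.8, 44.0 and 47.8 RPKM in shSMRT, 50.1, 49.2 and 50.3 in shNCOR and 54.3, 54.8 and 57.1 in shGFP, so both hairpins were below the control. Its log2 fold change was -0.30 ± 0.040 (SE) in shSMRT (adjusted p = 7.37e-05) and -0.15 ± 0.040 in shNCOR (adjusted p = 0.0122), the second not called without shGFP replicate 3 (0.0533). Pik3ap1, an adaptor to phosphoinositide 3-kinase, averaged 55.6 ± 1.23 RPKM in shSMRT, 40.9 ± 0.868 in shNCOR and 35.5 ± 0.749 in shGFP and rose in both (0.63 and 0.20). Ticam1, the adaptor of Tlr3, was called lower in shNCOR at -0.19, a call that ended without shGFP replicate 1 (adjusted p = 0.0527) or replicate 2 (0.0856) or shNCOR replicate 1 (0.0613) or replicate 3 (0.0772).

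Of 18 kinases and ubiquitin enzymes, 4 rose and 3 fell in shSMRT and 2 rose and 3 fell in shNCOR (median log2 fold change 0.02 and 0.04). The shares, 22.2% and 16.7% in shSMRT and 11.1% and 16.7% in shNCOR, were all below those of all tested genes. Irak2, a kinase of the Myd88 complex, showed the pattern of Tlr1 and Tlr2, with 22.4, 23.2 and 22.2 RPKM in shSMRT, 9.97, 10.8 and 10.8 in shNCOR and 14.0, 12.9 and 13.3 in shGFP. Irak2 changed on the log2 scale by 0.71 ± 0.045 (SE) in shSMRT (adjusted p = 2.7e-07) and -0.32 ± 0.045 in shNCOR (adjusted p = 0.000219). Traf6, the ubiquitin ligase downstream of the Irak kinases, averaged 4.72 ± 0.0845 RPKM in shSMRT, 7.19 ± 0.0557 in shNCOR and 6.92 ± 0.497 in shGFP, and fell in shSMRT (-0.47 ± 0.053, adjusted p = 2.36e-05).

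Of 7 tested inhibitors, 4 rose and none fell in shSMRT and 1 rose and none fell in shNCOR (median log2 fold change 0.11 and 0.04). The shares that rose were 57.1% in shSMRT, beside 24.4% of all tested genes, and 14.3% in shNCOR, beside 17.6%. Of the 10 listed inhibitors, Sigirr, Socs1 and Peli3 stayed below the filter and were not tested. Sigirr averaged 0.211 RPKM in shSMRT, 0.14 in shNCOR and 0.567 in shGFP. Socs1 averaged 0.794, 0.308 and 0.789 in the same order, and Peli3 was near 0. Dusp1, a phosphatase of MAP kinases, had 9.11, 9.53 and 8.98 RPKM in shSMRT, 5.60, 5.20 and 5.00 in shNCOR and 2.91, 3.44 and 3.04 in shGFP, with no overlap of groups. Its log2 fold change was 1.31 ± 0.062 (SE) in shSMRT (adjusted p = 3.12e-08) and 0.60 ± 0.062 in shNCOR (adjusted p = 1.95e-05). Tnfaip3, a ubiquitin-editing inhibitor of NF-kB signalling, averaged 3.13 ± 0.253 RPKM in shSMRT, 1.83 ± 0.183 in shNCOR and 2.19 ± 0.282 in shGFP and rose in shSMRT (0.37 ± 0.085, adjusted p = 0.00315).

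Among 9 tested pattern receptors outside the Toll-like family, 1 rose and 4 fell in shSMRT and 1 rose and 8 fell in shNCOR (median log2 fold change -0.09 and -0.86). The shares that fell were 44.4% in shSMRT, beside 31.4% of all tested genes, and 88.9% in shNCOR, beside 20.0%. Without Nlrc4 and Zbp1, whose fall in shNCOR the filter helped to set, 6 of 7 fell in shNCOR. Ddx58, which encodes the RNA sensor RIG-I, had 5.81, 5.82 and 6.24 RPKM in shSMRT, 1.62, 1.65 and 1.33 in shNCOR and 8.58, 9.07 and 8.07 in shGFP. Its log2 fold change was -0.46 ± 0.067 (SE) in shSMRT (adjusted p = 0.000146) and -1.92 ± 0.067 in shNCOR (adjusted p = 3.16e-09). The related helicase gene Dhx58 averaged 7.02 ± 0.318 RPKM in shSMRT, 2.89 ± 0.548 in shNCOR and 11.5 ± 0.188 in shGFP and fell in both (-0.64 and -1.70). Nlrp3, the inflammasome sensor, averaged 23.4 ± 0.517 RPKM in shSMRT, 15.2 ± 1.22 in shNCOR and 19.4 ± 0.392 in shGFP, rising in shSMRT (0.26 ± 0.049, adjusted p = 0.001) and falling in shNCOR (-0.33 ± 0.049, adjusted p = 0.000318). Aim2, a cytosolic DNA sensor, was the called gene that rose in shNCOR (0.19 ± 0.032, adjusted p = 0.000867). In shSMRT it was among the genes called lower (-0.086 ± 0.032, adjusted p = 0.0398). That shSMRT call ended in 10 alternatives, among them quantile normalization (0.0809) and leaving out shSMRT replicate 3 (0.129).

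**Figure D5:**
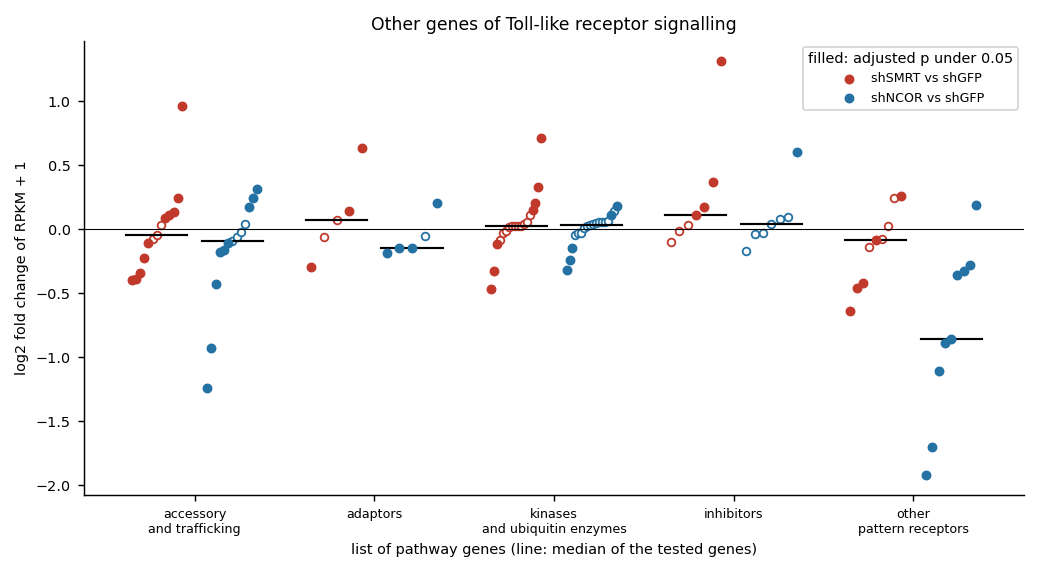
Log2 fold change of RPKM + 1 (vertical axis) of the 52 tested pathway genes by list (horizontal axis), in shSMRT and shNCOR against shGFP. Filled points passed an adjusted p of 0.05 and lines are medians of the tested genes of a list, with the lowest median, -0.86, for the other pattern receptors in shNCOR.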

How the data were processed

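Titles assigned 9 RNA-seq and 9 ATAC-seq libraries to hairpins. They were followed although the labels' ATAC protocol speaks of wild-type cells. The other samples were not analysed here. The RNA values were deposited as RPKM. Per the file headers, HOMER counted reads of both strands over exons of mm10 RefSeq transcripts, with 1 transcript per gene. Reads of antisense genes therefore cannot be told apart, but no other gene of the RefSeq annotation overlapped any of the 10 members. The ATAC values were deposited as signal: the reads in each peak, scaled to 10 M a library. Merged peaks were annotated with HOMER on mm10, per the file headers. The peak caller and any read shift are not given in the sources used here. Tools also named in the submitters' processing notes are Bowtie2, HISAT2, MACS2 and DESeq2, without roles. Decimal commas were read as points, and 1 peak with an unreadable cell was left out.

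Values were whole multiples of 1 read within 0.1 read for 100% of those tested, which gave the depths. Libraries of a group differed beyond sampling noise (chi-square of 1.64 to 9.65 per feature). A limma fit (3.58.1, in R 4.3.3) of all 9 libraries of an assay, with its trend option, tested log2(RPKM + 1) for genes that reached 1 RPKM in 3 or more libraries and log2(value + 5) for peaks with at least 10 in at least 3, with Benjamini-Hochberg adjustment over all features. A fold change on these scales understates the change of low features. The peak test was planned for values taken as scaled signal and was kept. The fit was also run on simulated counts with a fixed spread in each assay and no library effects. That run therefore says nothing about the library differences given above. Members, lists, tests and alternatives were chosen with earlier results of these data known. All members are named, with at most 2 called genes per direction and pathway list and contrast with shGFP, and peaks within 1 kb of a start site or called against shGFP. Likeness is the root mean square difference of centred log2 levels, for the 2 members with the widest range of group means. Unnamed predicted genes and small RNA genes were left out of it. The alternatives changed the pseudocount, filter or scaling, or used a replicate block, 6-library fits, array weights, a fold threshold, a 50 kb window and leaving out each library. A voom fit on recovered reads was chosen after seeing the data. Figures used matplotlib 3.10.9.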

Additional observations from a re-analysis of the deposited data

How the results depend on the processing

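All 13 member RNA calls against shGFP kept their direction and passed in every alternative that tested them, except the fold threshold of 0.5 on the log2 scale. That threshold left 2 member calls in each of shSMRT and shNCOR against shGFP and 1 between them, and 5, 8 and 12 pathway calls. For peaks it left 4 calls in shSMRT against shGFP and 5 between the hairpins. With a filter of 5 RPKM, 6 members were tested and 5 were called between the hairpins. Under quantile normalization 7 peaks were called in shNCOR against shGFP and 6 between the hairpins. Leaving out 1 library gave 7 to 8 member genes in shSMRT against shGFP, 6 in shNCOR against shGFP and 5 to 8 between them, the 5 without shSMRT replicate 3. The pathway counts were 22 to 29, 22 to 27 and 27 to 33, and the peak counts 3 to 10, 4 to 12 and 8 to 10. Values that reversed were not called. Without 1 library, the change of Tlr6 in shNCOR ranged from -0.023 to 0.036, and that of Tlr9 from -0.058 to 0.136 in shSMRT, from -0.187 to 0.053 in shNCOR and from -0.002 to 0.238 between the hairpins. In peaks the ranges were -0.051 to 0.045 for Tlr4 at 29.6 kb, -0.153 to 0.087 for Tlr4 at 67.2 kb and -0.285 to 0.030 for Tlr13 at -0.073 kb in shSMRT, and -0.174 to 0.407 for Tlr2 at -80.0 kb and -0.062 to 0.023 for Tlr7 at 1.41 kb in shNCOR. Quantile normalization gave -0.044 for Tlr9 and 0.071 for Tlr2 at 1.91 kb in shSMRT, and -0.037 for Cd14 at 190 bases in shNCOR, and Tlr4 at 29.6 kb in shSMRT was -0.009 with array weights and -0.008 with voom. The cause was not tested. Replicate numbers were shared between groups, but same-numbered libraries did not deviate together (r = -0.0602 to 0.105 in RNA, -0.0434 to 0.0223 in ATAC). With the replicate block 8, 6 and 8 member genes and 9, 10 and 10 member peaks were called in shSMRT against shGFP, shNCOR against shGFP and between the hairpins. Among 73 peaks within 50 kb of a start site, 15, 11 and 15 were called in these comparisons. In shSMRT against shGFP 3 rose and 12 fell, beside 6.81% and 10.9% of all tested peaks. In shNCOR against shGFP 7 rose and 4 fell, beside 4.58% and 4.00%. Between the hairpins 0 were higher and 15 lower in shSMRT, beside 6.93% and 17.5%. The tables were deposited in scaled units, and the count models edgeR and DESeq2 were not run on the recovered reads. Counts of at most 260 reads limit Tlr8.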

Other observations

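Tlr5, Tlr11 and Tlr12 are the remaining mouse Toll-like receptor genes of the RNA table and recognise flagellin or other proteins of microbes. They were listed at 0 in all 9 RNA libraries. A count of 0 allows up to 3 reads per library, which is 0.0191 to 0.0242 RPKM for these genes and covers counting error only. Tlr5 nevertheless had 10 peaks annotated to it, and Tlr11 and Tlr12 had 0. The Tlr5 peak nearest to the start site, at -927 bases, averaged 35.3 ± 2.48 reads per 10 M in shSMRT, 36.0 ± 8.33 in shNCOR and 39.8 ± 4.71 in shGFP (SD, n = 3 each), and the groups overlapped.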
